A study of Mus musculus with 18 samples.

Results

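The comparison described here sets myotubes that received Setd2 siRNA 2 against myotubes that received Setd2 siRNA 1, 3 libraries each, so 6 of the 18 libraries of the series. Members were chosen by their labels: the rule takes the myotube libraries of both Setd2 siRNAs and sums estimated counts per gene. The cells are C2C12, an established mouse line whose dividing myoblasts fuse into multinucleated muscle fibres, the myotubes, on differentiation. Every group was a differentiated (myotube) or undifferentiated (myoblast) culture of this line treated with a control siRNA, siRNA 1 or siRNA 2, and all RNA was polyA RNA extracted immediately after the cells had been stretched. The 3 libraries of a group are labelled as biological replicates. The siRNA dose and sequences and the days of differentiation were not used here. All samples come from 1 cell line. The 3 control siRNA libraries of the same stage enter the fit and are given beside the results. The 6 siRNA libraries of myoblasts serve as a second, separate set for the same contrast.

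Setd2 encodes the methyltransferase that places the trimethyl mark on lysine 36 of histone H3 over transcribed genes, a mark read by factors of splicing, DNA methylation and repair. An siRNA is a short double-stranded RNA that is loaded into an Argonaute protein and guides cleavage of a matching mRNA. Separate siRNAs against 1 gene share the target but not the sequence, so a direct contrast of both asks which transcripts depend on the siRNA used. In muscle, differentiation into myotubes brings sarcomere proteins, calcium handling proteins and a larger mitochondrial and glycolytic enzyme set.

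Total estimated counts were 51.2 to 56.4 megareads per library with siRNA 1, 48.6 to 59.9 with siRNA 2 and 43.5 to 66.6 in controls. Muscle genes were abundant in all 9 myotube libraries, with embryonic myosin Myh3 at 6063 to 8328 CPM (TMM-scaled counts per megaread) and skeletal actin Acta1 at 3363 to 4220 CPM. The share of 2 genes made of ribosomal RNA sequence was 1.5% to 2.88% with siRNA 1 and 2.26% to 2.99% with siRNA 2. Library names begin with C13 in 1 library (replicate 1) and D1 in 2 libraries (replicates 2 and 3) of each siRNA, so the prefix, whose meaning is not given, is balanced between the siRNAs in myotubes. It is not balanced in the contrasts against control, since the controls hold 2 C13 libraries and 1 D1 library. Replicate 3 of the controls is named NT_2 where the other controls are NT_1, and what that marks is not given. In myoblasts siRNA 1 has 2 C14 libraries and 1 D2 library, and siRNA 2 has 1 and 2, so prefix and siRNA are partly confounded there. For the contrasts against control, in myoblasts and between the stages, values with a term for the prefix or without 1 control, which were chosen after seeing the data, stand beside the leading results. Replicates 2 and 3 of siRNA 2 were closer to each other (chi-square of 3.21 per degree of freedom over genes) than any other pair of replicates of a group (11.5 to 31.1), which exceeds counting noise but does not show whether they come from separate cultures. They were kept as 2 libraries because the labels call them biological replicates. With the D1 libraries of each siRNA summed to 1 library, 974 genes were higher and 1005 lower in the direct contrast described below. Among the marker lists of other cell types, the summed TPM (length-corrected abundance as a share of a library) of 12 fibroblast markers was 4280 to 4530 with siRNA 1 and 3729 to 4002 with siRNA 2, without overlap, with Thy1, Lum, Dpt and Fap under 1 TPM. The summed CPM of the 10 tested fibroblast markers did overlap, at 2039.4 to 2361.5 with siRNA 1 and 1825.1 to 2286.7 with siRNA 2. Endothelial markers summed to 2.6 to 3.46 TPM and 3.51 to 4.24 TPM, with 6 of 8 markers under 1 TPM and Emcn at 0. Osteoblast and chondrocyte markers summed to 1061 to 1362 and 1447 to 1643 TPM, with 7 of 10 under 1 TPM and Ibsp and Acan at 0. Smooth muscle markers summed to 2017 to 2593 and 1976 to 2053 TPM. Adipocyte markers reached 23.6 to 25.4 and 25.2 to 28.4 TPM (Plin1, Cidec and Cfd at 0), macrophage markers 3.25 to 3.71 and 3.47 to 5.14 TPM (Adgre1, C1qa and C1qb at 0) and neural markers 4.97 to 6.56 and 3.13 to 6.14 TPM (Snap25 at 0). The part of the ribosomal RNA share and of these markers in the results below was not tested.

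Setd2 itself (ENSMUSG00000044791, chromosome 9, 110532597 to 110618633 of mm10) stood at 105, 105 and 99.3 CPM in controls, 58.1, 37.9 and 38.1 with siRNA 1 and 38.2, 34.8 and 33.6 with siRNA 2. Both siRNAs lowered it in every library (log2 fold changes -1.21 and -1.54, edgeR adjusted p = 0.00299 and 0.000581). Replicate 1 of siRNA 1 kept the highest Setd2 level of the 6 siRNA libraries. The direct difference between the siRNAs was -0.33 on the log2 scale (SE 0.17, edgeR adjusted p = 0.247), and -0.15 among the D1 libraries alone (edgeR adjusted p = 0.00427). The D1 fit holds 2 libraries of each siRNA, and those of siRNA 2 are the close pair described above. Because of the Setd2 level in replicate 1 of siRNA 1, counts that lead a paragraph are also given without it where they move by more than 1.5 times.

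In the direct contrast 1249 of 16097 tested genes were higher with siRNA 2 (7.76%) and 1506 were lower (9.36%) at an adjusted p under 0.05 in edgeR's quasi-likelihood test, which is the test behind every call and adjusted p below unless another is named. Most differences were small: the median absolute log2 difference of the 2755 called genes was 0.26, and 190 genes differed by at least 2-fold, 137 of them higher and 53 lower. Of the calls 45.3% were higher; with limma on log2(TPM + 0.5), where the median of all genes was -0.03, 673 genes were higher and 1370 lower, so that 32.9% were higher. Leaving out replicate 3 of siRNA 1 left 807 genes higher, and leaving out replicate 2 or 3 of siRNA 1 or replicate 2 or 3 of siRNA 2 left 946 to 983 lower; without replicate 1 of siRNA 1 there were 1133 higher and 1355 lower. The median gene length was 24.0 kb for genes higher with siRNA 2 and 31.9 kb for those lower, against 24.2 kb for all genes tested.

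Against the control siRNA, siRNA 1 raised 1766 genes (11.0% of those tested) and lowered 1540 (9.57%), and siRNA 2 raised 2545 (15.8%) and lowered 2640 (16.4%). These contrasts share the controls, and the direct contrast shares the treated libraries with both. Of the 2755 genes that differed between the siRNAs, 1338 were called against control with siRNA 2 alone, 490 with siRNA 1 alone, 393 with both in the same direction and 82 with both in opposite directions; 452 were called with neither.

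Oxidative phosphorylation genes, which encode the subunits of the respiratory chain and of ATP synthase, were the group with the most members called: 36 of 52 tested were higher with siRNA 2 and 1 was lower, with a median log2 difference of 0.19 against 0.00 over all genes. Relative to the control mean, the median of the list was 0.16, 0.12 and 0.08 with siRNA 1 and 0.32, 0.28 and 0.28 with siRNA 2. The lowest siRNA 2 library lay above the highest siRNA 1 library, and both groups lay above the 3 controls. Cox7a1, the muscle and heart form of a cytochrome oxidase subunit (ENSMUSG00000074218, chromosome 7, 30184144 to 30186078), stood at 3.70, 2.71 and 3.50 CPM in controls, 5.49, 5.33 and 5.18 with siRNA 1 and 10.03, 9.77 and 8.47 with siRNA 2. For Cox7a1 the log2 difference was 0.82 (SE 0.11, adjusted p = 0.000333). Cyc1, cytochrome c1 of complex III, stood at 148, 134 and 148 CPM in controls, 172, 157 and 159.9 with siRNA 1 and 217, 213 and 209.7 with siRNA 2. Cyc1 had a log2 difference of 0.38 (SE 0.05, adjusted p = 0.000224). The 3 groups did not overlap for either gene. Ndufs8, an iron-sulfur subunit of complex I, differed by 0.31 (adjusted p = 0.000146) with no overlap between the siRNA groups, and subunits of all 5 complexes were among the higher genes, among them Sdha and Sdhb of complex II and Atp5a1 and Atp5b of ATP synthase. The 1 subunit called lower was Atp5k (log2 difference -0.22, SE 0.04, adjusted p = 0.0039). Against control, 23 of the 52 rose with siRNA 1 and 46 with siRNA 2, and none fell with either; without replicate 2 of the controls 12 rose with siRNA 1, and with a prefix term 1 fell with siRNA 2.

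**Figure D1:**
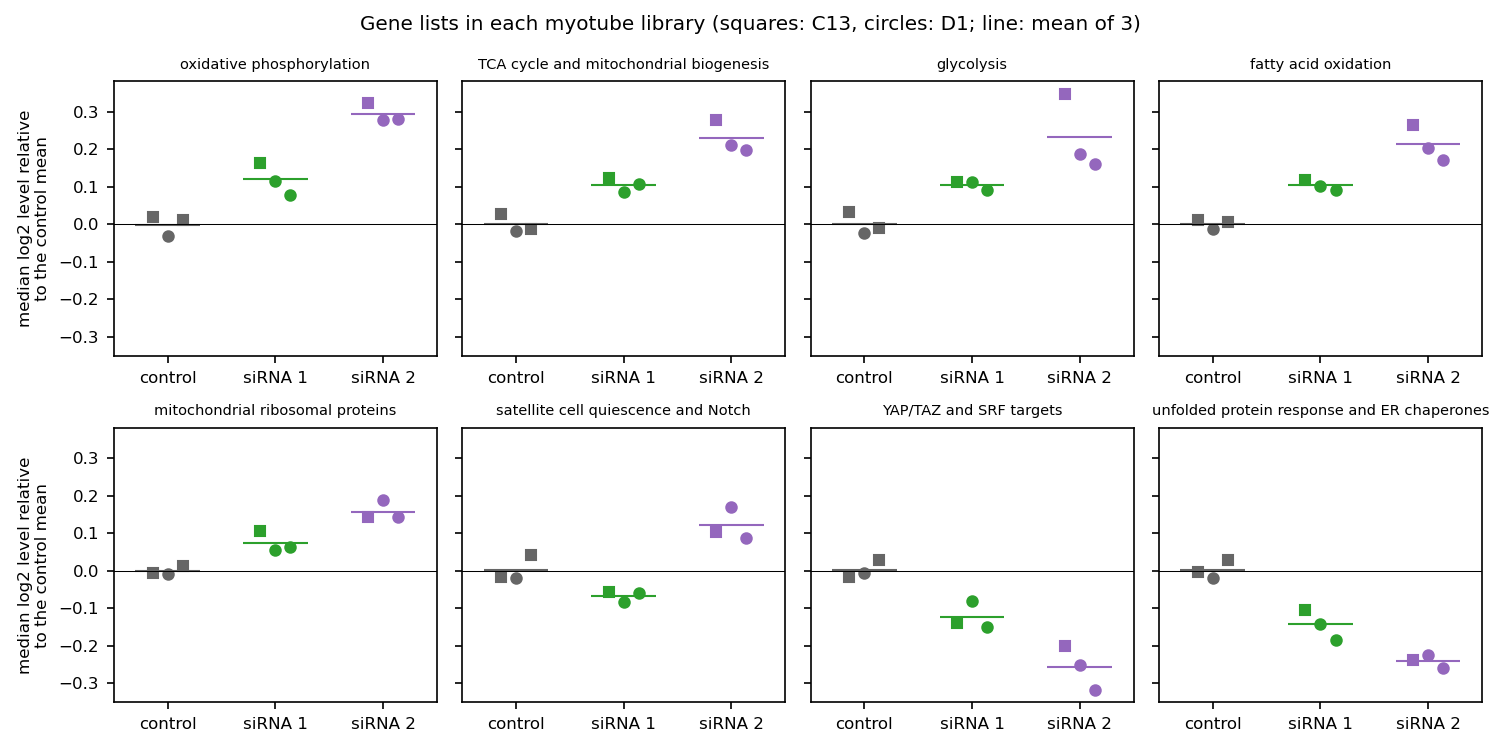
Median log2 level of 8 gene lists in each myotube library relative to the mean of the 3 control libraries (y axis), by siRNA group (x axis); squares are C13 and circles D1 libraries, and lines are means of 3. In the 5 metabolic and mitochondrial lists the controls sit near 0, siRNA 1 above them and siRNA 2 higher again, as in oxidative phosphorylation with 0.08 to 0.16 and 0.28 to 0.32.

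Ppargc1a, which encodes the coactivator PGC-1alpha that drives transcription of mitochondrial genes, led the list of the citrate cycle and mitochondrial biogenesis (ENSMUSG00000029167, chromosome 5, 51454250 to 51567726). It stood at 11.7, 7.54 and 10.04 CPM in controls, 14.8, 13.8 and 14.1 with siRNA 1 and 31.9, 22.5 and 25.6 with siRNA 2. For Ppargc1a the log2 difference was 0.91 (SE 0.17, adjusted p = 0.00899). Each siRNA 2 library exceeded each siRNA 1 library. Of that list 13 of 27 were higher and none lower (median 0.12). Idh3a, a subunit of the NAD-dependent isocitrate dehydrogenase, stood at 131, 126 and 132 CPM with siRNA 1 and 179, 163 and 166 with siRNA 2 (log2 difference 0.39, SE 0.04, adjusted p = 0.000111). Citrate synthase Cs, both pyruvate dehydrogenase E1 genes Pdha1 and Pdhb, and the mitochondrial transcription factor Tfam were also higher. Of the mitochondrial ribosomal proteins, 12 of 36 were higher and none lower (median 0.10), led by Mrpl4 (log2 difference 0.20, SE 0.04, adjusted p = 0.00533). That count fell to 4 without replicate 2 of siRNA 2, 5 without replicate 3 of siRNA 2 or replicate 2 of siRNA 1, and 2 without replicate 3 of siRNA 1; with limma on log2(TPM + 0.5) it was 3.

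Of the glycolysis and glycogen genes 9 of 27 were higher and none lower (median 0.18). Pygm, the muscle glycogen phosphorylase, stood at 381, 334 and 337 CPM in controls, 477, 426 and 443 with siRNA 1 and 627, 580.2 and 573 with siRNA 2. Pygm had a log2 difference of 0.40 (SE 0.06, adjusted p = 0.000791). Muscle glycogen synthase Gys1 stood at 252, 260.2 and 252 CPM with siRNA 1 and 337, 317 and 314 with siRNA 2 (log2 difference 0.34, SE 0.04, adjusted p = 0.000178), with a log2 fold change of 0.04 against control for siRNA 1. Triose phosphate isomerase Tpi1 differed by 0.28, phosphofructokinase Pfkm by 0.18 and lactate dehydrogenase Ldha by 0.20 (adjusted p = 0.00179, 0.0325 and 0.0101). The glucose phosphorylating enzyme Hk2 did not pass the test (log2 difference -0.04, SE 0.06). Among the D1 libraries alone 15 of the 27 were called higher and 5 lower, where 14.2% and 15.9% of all genes were, so the number lower is near the share over all genes.

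Fatty acid oxidation was divided: 10 of 28 members were higher and 2 lower, and those 2 had the largest differences of the list. Cpt2, the inner membrane carnitine palmitoyltransferase that hands long-chain fatty acids to the matrix (ENSMUSG00000028607, chromosome 4, 107903981 to 107923610), stood at 26.7, 24.5 and 27.1 CPM in controls, 28.7, 29.6 and 29.3 with siRNA 1 and 16.8, 13.6 and 13.9 with siRNA 2. For Cpt2 the log2 difference was -0.99 (SE 0.07, adjusted p = 8.81e-06). Cd36, which takes up long-chain fatty acids at the cell surface, stood at 57.4, 60.7 and 53.2 CPM in controls, 50.1, 51.9 and 51.9 with siRNA 1 and 31.9, 33.3 and 31.8 with siRNA 2. Cd36 had a log2 difference of -0.67 (SE 0.05, adjusted p = 5.57e-06). In both genes the 3 siRNA 2 libraries lay below every other myotube library. The enzymes of the oxidation cycle itself moved the other way, with thiolase Acaa2 at 112, 121 and 119 CPM with siRNA 1 and 144, 147 and 147 with siRNA 2 (log2 difference 0.31, SE 0.05, adjusted p = 0.00138) and Hadha, Hadhb, Hadh, Echs1 and Acadvl higher by 0.13 to 0.29. Acacb, the acetyl-CoA carboxylase whose product restrains fatty acid import into mitochondria, stood at 5.16, 4.04 and 4.55 CPM in controls, 4.78, 4.05 and 4.62 with siRNA 1 and 7.65, 8.89 and 10.9 with siRNA 2 (log2 difference 1.03, SE 0.13, adjusted p = 0.000351), the largest difference in the list of lipid synthesis, of which 4 of 19 were higher and 1 lower (2 higher without replicate 2 of siRNA 2, 9 without replicate 1 of siRNA 2). No gene of cholesterol synthesis was called at 26 tested (0 at an unadjusted p under 0.05, and 0 with DESeq2 or limma on TPM), although the list's median was 0.19. Among the D1 libraries alone 21 of 26 were called higher, with a median of 0.29, and 2 were called without replicate 1 of siRNA 2. The C13 pair of libraries had a median of -0.11. Relative to the control mean, the list's median was -0.54, -0.07 and -0.08 with siRNA 1 and -0.68, 0.22 and 0.21 with siRNA 2. In myoblasts 14 of 26 were called higher and 0 lower (median 0.15), where 12.1% of all genes were higher. With a prefix term these were 19 and 0, where 19.7% of all genes were higher. The D1 fit holds 2 libraries of each siRNA, and those of siRNA 2 are the close pair described above. Calls in the D1 fit were more frequent over all genes too, as given for glycolysis. The part of the close pair and of the prefix in the cholesterol calls was not tested.

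Of the sarcomere genes 5 of 50 were higher with siRNA 2 (10%, near the 7.76% over all genes) and 10 lower (median 0.00). Myl2, the slow and cardiac regulatory light chain, stood at 23.4, 20.6 and 25.1 CPM in controls, 41.6, 38.7 and 36.3 with siRNA 1 and 19, 16.2 and 17.9 with siRNA 2. For Myl2 the log2 difference was -1.14 (SE 0.08, adjusted p = 1.26e-05). It rose with siRNA 1 and fell with siRNA 2 against control (log2 fold changes 0.76 and -0.38, adjusted p = 0.000143 and 0.00534). Slow troponin T gene Tnnt1 differed by -0.46 and the slow fibre calsarcin Myoz2 by -0.36 (adjusted p = 0.00131 and 0.000672). Myoz1, the fast fibre calsarcin, stood at 5.49, 5.17 and 4.62 CPM with siRNA 1 and 12.5, 11.1 and 10.8 with siRNA 2 (log2 difference 1.17, SE 0.12, adjusted p = 6.75e-05), and Mylk2, the skeletal myosin light chain kinase, at 50.2, 55.7 and 56.5 CPM with siRNA 1 and 87.2, 82.9 and 90.8 with siRNA 2 (log2 difference 0.68, SE 0.06, adjusted p = 5.88e-05). Fast troponins Tnnc2 and Tnni2 were higher by 0.17 and 0.14 (adjusted p = 0.00951 and 0.0294). Tnnt1, Myoz2, Tnnc2 and Tnni2 were picked after their values were seen, and the other called members are not named here. A pattern by fibre type was not tested. Without replicate 2 of siRNA 1 the number higher was 2, and without replicate 2 of siRNA 2, 3 of siRNA 2 or 3 of siRNA 1 it was 3.

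Among genes of excitation-contraction coupling 6 of 27 were higher (22.2%) and 5 lower (18.5%), against 7.76% and 9.36% over all genes. Without replicate 1 or 3 of siRNA 1 there were 3 higher. Clcn1, the skeletal muscle chloride channel, stood at 3.82, 3.66 and 3.58 CPM with siRNA 1 and 7.37, 6.24 and 7.62 with siRNA 2 (log2 difference 0.94, SE 0.19, adjusted p = 0.00629), and the inward rectifier potassium channel Kcnj2 at 26.4, 23.8 and 26.7 CPM with siRNA 1 and 45.8, 35.5 and 37.7 with siRNA 2 (log2 difference 0.63, SE 0.09, adjusted p = 0.00106). The fast fibre calcium pump Atp2a1 was higher by 0.36 (adjusted p = 0.00175). Srl, sarcalumenin, a calcium-binding protein of the sarcoplasmic reticulum, stood at 1316, 1291 and 1353 CPM with siRNA 1 and 909, 842 and 852 with siRNA 2 (log2 difference -0.61, SE 0.05, adjusted p = 2.19e-05). Of the myogenic regulators and fusion genes 3 of 30 were higher (10%, near the 7.76% over all genes) and 6 lower. Myod1 and Myog, which set the muscle programme, differed by -0.00 and 0.01 and did not pass (adjusted p = 0.998 and 0.973). Caveolin 3 (Cav3), a muscle membrane protein, differed by -0.42, the adhesion molecule Jam2 by -0.40 and the early myogenic factor Myf5 by 0.30 (adjusted p = 0.000356, 0.000197 and 0.00479).

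**Figure D2:**
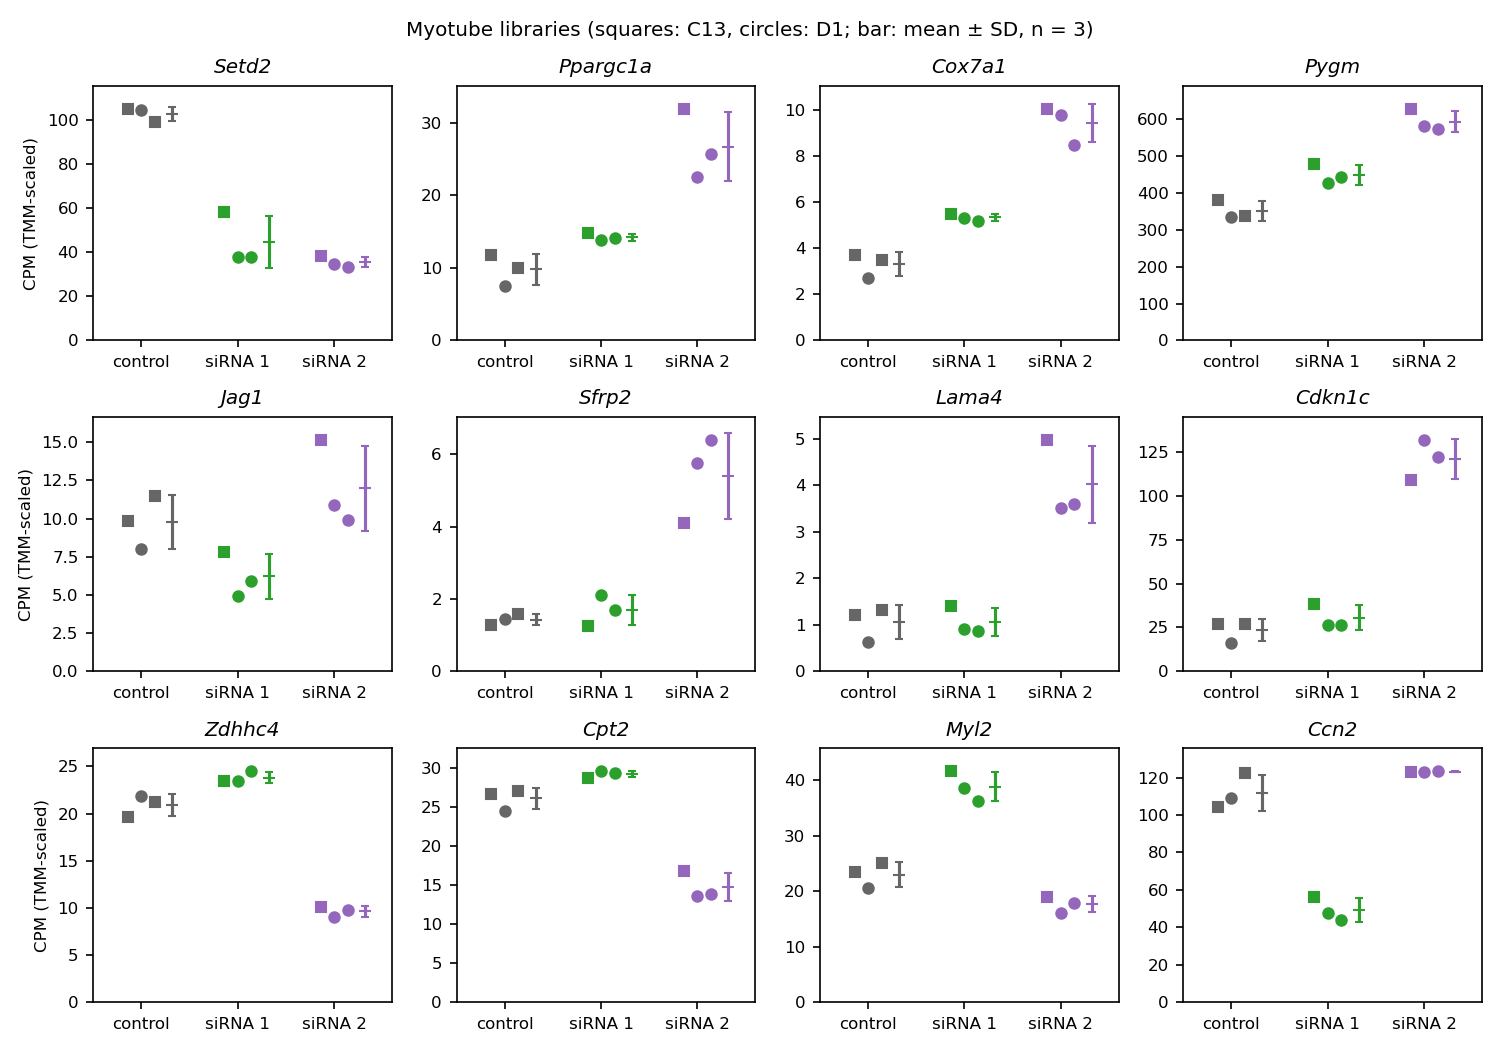
CPM (TMM-scaled, y axis from 0) of 12 genes in each myotube library by siRNA group; squares are C13 and circles D1 libraries, and bars are the mean ± SD of 3. In all of them except Setd2 the 3 siRNA 2 libraries lie apart from the 3 siRNA 1 libraries, while Ccn2 is below the controls only with siRNA 1 and Cpt2 only with siRNA 2.

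Notch genes hold satellite cells in the undifferentiated state. In the joint list of satellite cell quiescence and Notch genes 5 of 18 tested members were higher and none lower (median 0.17). The count was 2 without replicate 2 of siRNA 2, replicate 2 of siRNA 1 or replicate 3 of siRNA 1, and 2 with limma on log2(TPM + 0.5). Hey1, a transcription factor induced by Notch, stood at 18.7, 16.6 and 20.9 CPM in controls, 15.5, 12.7 and 13.1 with siRNA 1 and 28.3, 26.3 and 23.7 with siRNA 2. Hey1 had a log2 difference of 0.92 (SE 0.10, adjusted p = 0.000289). It fell with siRNA 1 and rose with siRNA 2 against control (adjusted p = 0.014 and 0.00494). The ligand Dll1 stood at 32.1, 27.9 and 28.9 CPM with siRNA 1 and 38.4, 45.5 and 47.1 with siRNA 2 (log2 difference 0.56, SE 0.07, adjusted p = 0.000603). A second ligand, Jag1, stood at 7.81, 4.91 and 5.95 CPM with siRNA 1 and 15.1, 10.9 and 9.92 with siRNA 2 (log2 difference 0.94, SE 0.23, adjusted p = 0.0287), and its adjusted p was 0.0515 to 0.0904 without replicate 1 or 2 of siRNA 2 or replicate 2 or 3 of siRNA 1. Receptors Notch1 and Notch3 were higher by 0.23 and 0.22.

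Of the Wnt list 10 of 31 were higher and 2 lower, and the 3 largest differences were secreted Wnt antagonists or modulators. Sfrp2, which binds Wnt ligands, stood at 1.28, 1.44 and 1.58 CPM in controls, 1.27, 2.11 and 1.69 with siRNA 1 and 4.08, 5.75 and 6.39 with siRNA 2. For Sfrp2 the log2 difference was 1.68 (SE 0.20, adjusted p = 0.000198). Its relative Sfrp4 stood at 0.978, 0.596 and 0.606 CPM with siRNA 1 and 2.41, 2.04 and 1.91 with siRNA 2 (log2 difference 1.54, SE 0.20, adjusted p = 0.000362), and Dkk2, a ligand of the Wnt coreceptors, at 1.21, 2.27 and 1.98 CPM with siRNA 1 and 4.21, 4.89 and 4.51 with siRNA 2 (log2 difference 1.32, SE 0.19, adjusted p = 0.000616). All 3 were low in abundance and their siRNA groups did not overlap. The potentiator Rspo3, the receptor Fzd4, the ligand Wnt4 and the transcription factors Lef1 and Tcf7l2 were also called higher, and the receptor Fzd2 and the scaffold Apc lower.

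Of the extracellular matrix genes 8 of 46 were higher and 1 lower (3 higher without replicate 2 and 5 without replicate 3 of siRNA 1, and 12 with DESeq2), with a median of 0.15. Relative to the control mean, the list's median was -0.06, -0.27 and -0.29 with siRNA 1 and 0.18, -0.11 and -0.21 with siRNA 2. These ranges overlapped. Among the D1 libraries alone 24 were called higher and 10 lower, where 14.2% and 15.9% of all genes were. In myoblasts 21 of 43 were higher and 1 lower, where 12.1% and 14.3% of all genes were. With a prefix term these were 31 and 4. Lama4, a laminin chain of basement membranes, stood at 1.21, 0.636 and 1.31 CPM in controls, 1.40, 0.914 and 0.873 with siRNA 1 and 4.97, 3.51 and 3.59 with siRNA 2 (log2 difference 1.92, SE 0.27, adjusted p = 0.00081). Lama4 with siRNA 1 overlapped the controls. Thbs2, a thrombospondin, stood at 64.5, 67.4 and 71.3 CPM in controls, 47, 51.6 and 50.7 with siRNA 1 and 105, 99 and 98.5 with siRNA 2 (log2 difference 1.02, SE 0.05, adjusted p = 1.28e-07), below control in every siRNA 1 library and above control in every siRNA 2 library. Decorin (Dcn), also listed as a fibroblast marker, was the 1 lower member (127, 115 and 124 CPM with siRNA 1 and 88.6, 85.2 and 73.5 with siRNA 2; log2 difference -0.57, SE 0.07, adjusted p = 0.000267). The fibroblast markers given above moved the same way as Dcn in summed TPM, while their summed CPM overlapped between the siRNAs. Their part in this list was not tested. Among matrix proteases and their inhibitors 4 of 27 were higher and 2 lower (7.41%, against 9.36% over all genes), with Pappa, which cleaves binding proteins of insulin-like growth factor, at 14.8, 17.6 and 15.6 CPM in controls, 5.16, 4.49 and 3.92 with siRNA 1 and 9.68, 7.34 and 6.91 with siRNA 2. Pappa had a log2 difference of 0.82 (SE 0.14, adjusted p = 0.00325). Pappa fell with both siRNAs, further with siRNA 1. In the list of TGF-beta, BMP and activin signalling 5 of 33 were higher (15.2%) and 2 lower (6.06%, below the share over all genes): the type I receptor Tgfbr1 was higher by 0.52 and the type II receptor Tgfbr2 lower (log2 difference -0.36; adjusted p = 0.000132 and 0.00653).

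Targets of YAP/TAZ and of serum response factor (SRF) answer to tension of the actin cytoskeleton. With siRNA 2, 12 of 36 were lower and 1 higher (median -0.05). Relative to the control mean, the median of the list was -0.14, -0.08 and -0.15 with siRNA 1 and -0.20, -0.25 and -0.32 with siRNA 2. The siRNA 2 libraries were the 3 lowest of the 9. Amotl1, a partner of YAP, stood at 324, 275 and 284 CPM with siRNA 1 and 230.5, 206 and 201 with siRNA 2 (log2 difference -0.47, SE 0.07, adjusted p = 0.00094), and Myl9, a regulatory light chain of non-muscle and smooth muscle myosin, at 44.1, 41.1 and 37 CPM with siRNA 1 and 26.6, 31.8 and 30.8 with siRNA 2 (log2 difference -0.45, SE 0.08, adjusted p = 0.00251). The SRF coactivator Mrtfa was lower (log2 difference -0.23, adjusted p = 0.000577), as was vinculin (Vcl; -0.28, adjusted p = 0.00219). The 1 member higher was Ccn2, a secreted matrix protein and a widely used YAP target, which had the largest difference of the list. It stood at 104, 109 and 122 CPM in controls, 56.3, 47.8 and 43.8 with siRNA 1 and 123, 123 and 123 with siRNA 2. For Ccn2 the log2 difference was 1.32 (SE 0.09, adjusted p = 4.55e-05). Ccn2 fell with siRNA 1, in every library, and did not pass against control with siRNA 2 (log2 fold change 0.14, adjusted p = 0.266).

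Of the integrin and dystrophin complex genes 6 of 31 were lower and 1 higher (3 lower without replicate 2 of siRNA 1), led by syntrophin Sntb1 (log2 difference -0.39, adjusted p = 0.000716) and, in the higher direction, delta-sarcoglycan Sgcd (0.31; adjusted p = 0.0201, and 0.052 and 0.0572 without replicate 1 or 3 of siRNA 1). Of tubulins and microtubule regulators 6 of 25 were lower and 2 higher, among them tau (Mapt; -0.50) and the microtubule-associated tumour suppressor gene Mtus1 (0.56; adjusted p = 0.00105 and 0.000573). Kinesin and dynein genes had 3 higher and 6 lower of 26, and the number lower was 0 without replicate 2 or replicate 3 of siRNA 1 and 3 without replicate 2 of siRNA 2. Its largest differences were in kinesins Kif26b (0.89) and Kif21b (0.80; adjusted p = 0.00538 and 0.000643).

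Of the endoplasmic reticulum chaperones and other targets of the unfolded protein response 8 of 25 were lower and 2 higher (median -0.10). The number lower was 2 without replicate 1 of siRNA 1, 3 without replicate 3 of siRNA 2, 4 without replicate 2 of either siRNA and 5 without replicate 3 of siRNA 1. The chaperone BiP (Hspa5) stood at 619.7, 643 and 670 CPM in controls, 569, 542 and 528 with siRNA 1 and 470.4, 511 and 497 with siRNA 2 (log2 difference -0.15, SE 0.05, adjusted p = 0.0399); Herpud1, a component of ER-associated degradation, was higher at 182, 188 and 183 CPM with siRNA 1 and 250.1, 228 and 225 with siRNA 2 (log2 difference 0.35, SE 0.04, adjusted p = 0.000278). In the integrated stress response list, made of amino acid and ATF4 genes, 5 of 32 were higher and none lower (3 without replicate 1 of siRNA 2, 2 without replicate 2 of siRNA 2 or replicate 1 or 3 of siRNA 1). Stc2, a secreted glycoprotein, stood at 17.8, 19 and 18.1 CPM in controls, 15.7, 13.3 and 13.3 with siRNA 1 and 19.1, 23.9 and 21.6 with siRNA 2 (log2 difference 0.61, SE 0.08, adjusted p = 0.000564), and the lipoprotein receptor Vldlr at 17.5, 18.3 and 19 CPM with siRNA 1 and 44.8, 29.7 and 30.1 with siRNA 2 (log2 difference 0.93, SE 0.17, adjusted p = 0.00982). Stc2 fell with siRNA 1 and rose with siRNA 2 against control (adjusted p = 0.00933 and 0.0461), and the rise was not called with a prefix term (0.0608) or without replicate 1, 2 or 3 of the controls (0.13, 0.0714 and 0.125). Proteasome subunits had 9 of 31 higher and 3 lower (5 higher without replicate 2 or 3 of siRNA 2 or replicate 3 of siRNA 1, 15 higher without replicate 1 of siRNA 2, and 1 lower without replicate 3 of either siRNA). The largest difference among them was the lower level of Psmd2, a scaffold subunit of the regulatory particle, at 385, 383 and 390 CPM with siRNA 1 and 316, 315 and 314 with siRNA 2 (log2 difference -0.29, SE 0.03, adjusted p = 8.58e-05).

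Among autophagy and lysosome genes 8 of 30 were lower and 2 higher (3 or 4 lower without replicate 2 or 3 of either siRNA). Tfeb, a transcription factor of lysosomal genes, had a log2 difference of 0.42 (adjusted p = 0.000146). NRF2 and antioxidant genes had 8 higher and 2 lower of 29 (5 higher without replicate 2 of siRNA 2 or replicate 3 of siRNA 1, and 1 lower whichever of the 9 libraries was left out), with glutathione transferases Gsta4 and Gstm2 at 0.54 and -0.79 (adjusted p = 0.00717 and 7.27e-05). Of the hypoxia list 6 of 22 were higher and 2 lower (1 lower without replicate 2 or 3 of either siRNA or replicate 1 of the controls). Its largest difference was Epas1, which encodes the oxygen-sensing factor HIF-2alpha, at 1.17, 0.976 and 1.22 CPM in controls, 1.92, 2.62 and 2.51 with siRNA 1 and 5.12, 4.51 and 5.11 with siRNA 2. Epas1 had a log2 difference of 1.06 (SE 0.14, adjusted p = 0.00029). It rose with both siRNAs, further with siRNA 2. Immediate early genes had 7 of 30 higher and 1 lower (4 higher without replicate 2 of siRNA 2 or replicate 2 or 3 of siRNA 1); Nr4a1 and Fos differed by 0.63 and 0.49 (adjusted p = 0.0263 and 0.0332). Of the p53 targets 5 of 26 were higher and 6 lower (3 higher without replicate 2 of either siRNA), with the kinase Plk2 lowest at 142, 137 and 139.8 CPM with siRNA 1 and 89.96, 90.8 and 86.6 with siRNA 2 (log2 difference -0.65, SE 0.06, adjusted p = 5.46e-05). In the insulin and IGF list 4 of 26 were higher (15.4%) and 1 lower (3.85%), against 7.76% and 9.36% over all genes. The adaptor Irs1 stood at 158, 167 and 164 CPM with siRNA 1 and 217, 205 and 216 with siRNA 2 (log2 difference 0.38, SE 0.04, adjusted p = 4.16e-05).

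Of 38 mitosis genes 36 fell with siRNA 1 and 36 with siRNA 2. In the direct contrast 3 were higher with siRNA 2 (7.89%, near the 7.76% over all genes) and none lower, with a median of 0.07. With limma on log2(TPM + 0.5) none was called. Cdk1, the mitotic kinase, stood at 27, 29.4 and 29 CPM in controls, 18.7, 20.9 and 20.2 with siRNA 1 and 23, 22.9 and 23.5 with siRNA 2 (log2 difference 0.22, SE 0.05, adjusted p = 0.0127; adjusted p = 0.215 with limma on log2(TPM + 0.5)). Of 42 S phase genes 27 fell with siRNA 1 and 26 with siRNA 2, with 2 higher and 3 lower in the direct contrast, and of 33 DNA repair genes 15 and 16 fell (10 with siRNA 1 without replicate 2 of the controls), with 1 higher and 1 lower. Other lists with few members called were these, given as higher and lower: 2 and 1 of 37 splicing factors, 2 and 2 of 26 H3K36 enzymes and readers, 3 and 0 of 44 cytosolic ribosomal proteins, 1 and 2 of 20 heat shock genes and 1 and 1 of 13 atrophy genes. There were 1 and 1 of 18 lamina genes, 2 and 2 of 17 clock genes, 3 and 3 of 26 NF-kB and cytokine genes and 0 and 1 of 12 histone genes. Each of these counts was 3 or fewer and many moved by more than 1.5 times when single libraries were left out, as for the cytosolic ribosomal proteins, with 9 higher without replicate 1 of siRNA 1 and 0 without replicate 2 of siRNA 2 or replicate 2 or 3 of siRNA 1. Among apoptosis genes 2 of 27 were higher and 4 lower (14.8%), with 1 higher without replicate 2 or 3 of siRNA 2, replicate 1 or 2 of siRNA 1 or replicate 1 of the controls. Imprinted genes, a short list, had 4 of 17 higher (23.5%) and 3 lower (17.6%), against 7.76% and 9.36% over all genes. Interferon response genes had 2 higher (6.9%) and 4 lower (13.8%) of 29, with 1 or 2 lower without replicate 1, 2 or 3 of siRNA 1, replicate 2 or 3 of siRNA 2 or replicate 2 or 3 of the controls. The RNA interference and miRNA machinery had 2 of 19 higher and 4 lower. Drosha, the nuclease that cuts primary miRNA transcripts, stood at 98.5, 92.5 and 91.7 CPM in controls, 104, 102 and 99.1 with siRNA 1 and 77.9, 70.2 and 67.6 with siRNA 2 (log2 difference -0.50, SE 0.05, adjusted p = 6.36e-05), and Dicer1, which cuts their hairpins, differed by -0.18 (adjusted p = 0.0053). The 3 siRNA 2 libraries had less Drosha mRNA than any other myotube library.

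Of the other cell type lists, endothelial markers had 3 of 4 tested higher, all at low levels: Vwf at 2.01, 2.21 and 2.32 CPM with siRNA 1 and 2.89, 2.79 and 2.93 with siRNA 2, Tek at 0.748, 1.19 and 1.23 CPM with siRNA 1 and 1.55, 2.02 and 1.93 with siRNA 2 and Cdh5 at 0.0575, 0.159 and 0.0713 CPM with siRNA 1 and 0.351, 0.41 and 0.251 with siRNA 2. At its level Cdh5 may have passed the low-count filter only through the siRNA 2 libraries, so its call is a description. Without replicate 2 of siRNA 2 the adjusted p was 0.0691 for Vwf, 0.0671 for Tek and 0.0667 for Cdh5. It was 0.0535 for Tek without replicate 3 of siRNA 2 and 0.0675 for Cdh5 without replicate 3 of siRNA 1, and the Vwf call was lost whichever of the 6 siRNA libraries was left out (0.0529 to 0.0898). Fibroblast markers had 2 of 10 lower and none higher (1 lower without replicate 2 or 3 of either siRNA), and no adipocyte, osteoblast, smooth muscle, macrophage or neural marker was called.

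**Figure D3:**
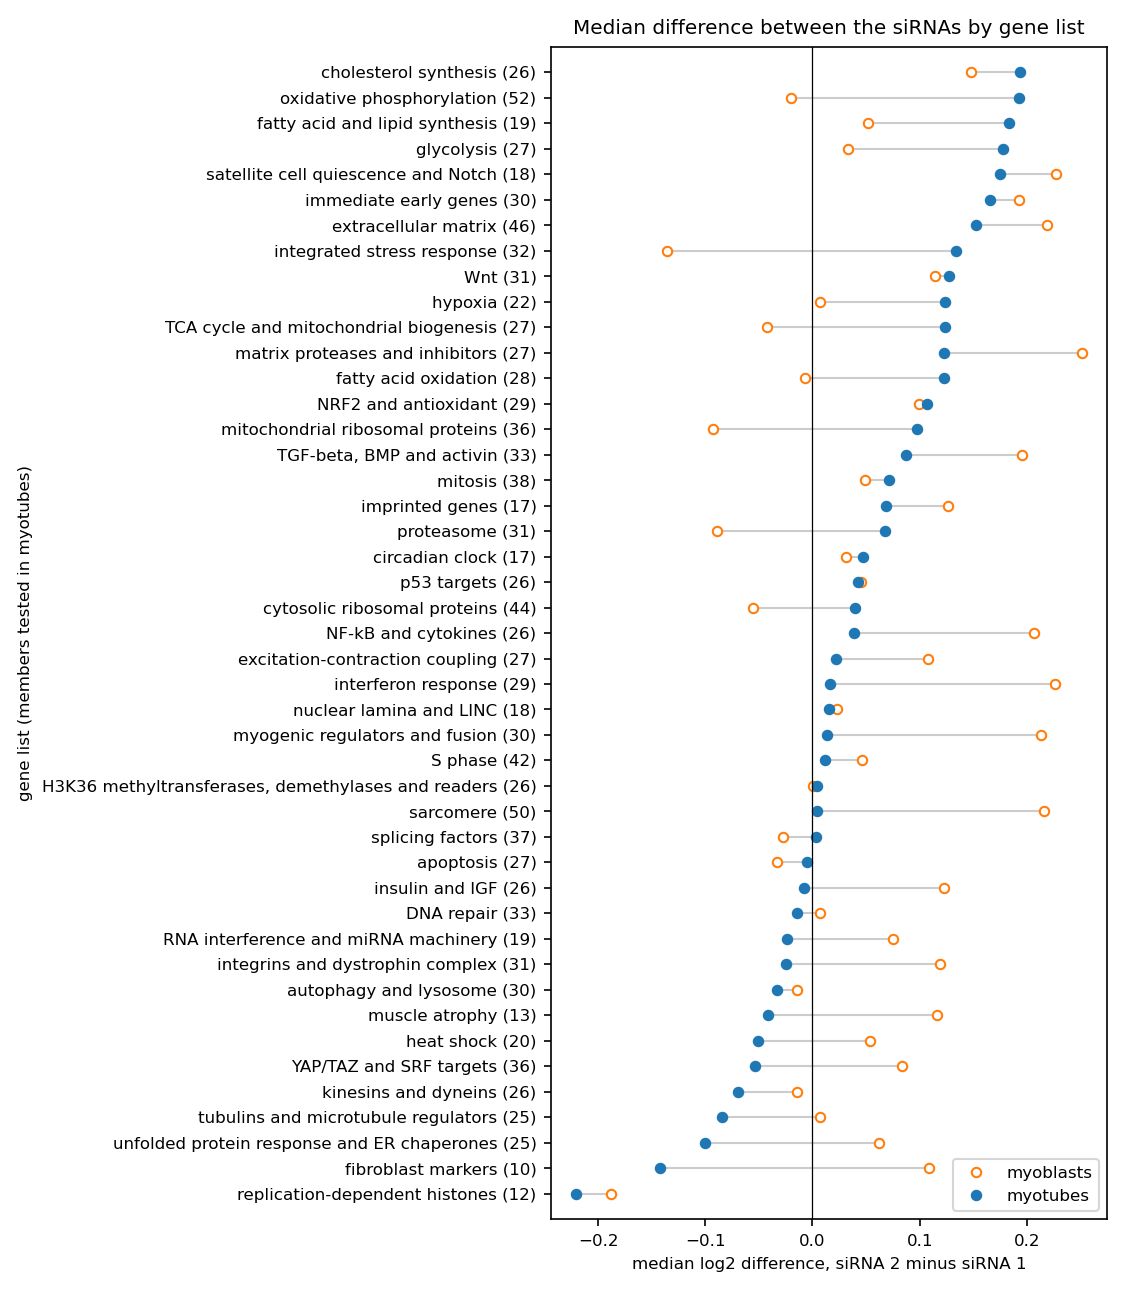
Median log2 difference, siRNA 2 minus siRNA 1 (x axis), of the gene lists with at least 10 tested members (y axis, number tested in myotubes in brackets), in myotubes (filled) and myoblasts (open). Oxidative phosphorylation stands at 0.19 in myotubes and -0.02 in myoblasts, while the sarcomere list stands at 0.00 and 0.22.

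The genes with the largest differences were mostly of low abundance. Among called genes with a mean of at least 1 CPM over the siRNA libraries and no overlap between them, the 10 highest and 10 lowest are described. A gene at a low level could pass this minimum through the group where it is high, as 6 of the 10 highest did through siRNA 2 (Mcpt1, Gbp10, Gbp9, Gbp8, Stc1 and Sim1) and 2 of the 10 lowest through siRNA 1 (Ms4a8a and Tex16), so their places are descriptions. Mcpt1, a mast cell protease, stood at 0.183, 0.222 and 0.266 CPM in controls, 0.23, 0.159 and 0.142 with siRNA 1 and 3.20, 3.52 and 2.74 with siRNA 2. Gzme, a granzyme at 1.05, 1.81 and 1.76 CPM with siRNA 1 and 6.81, 9.65 and 8.22 with siRNA 2, differed by 2.41, and 3 guanylate-binding protein genes, Gbp10, Gbp9 and Gbp8, by 2.62, 2.00 and 1.94 (Gbp9 adjusted p = 0.0628 and 0.0553 without replicate 2 or 3 of siRNA 1). Mcpt, Gzm and Gbp genes have near-identical copies that can share reads, so their values are uncertain. Cdkn1c, an imprinted inhibitor of cyclin-dependent kinases also called p57, was the most abundant of the 10 highest, at 27.1, 16.3 and 26.8 CPM in controls, 38.6, 26.4 and 26.3 with siRNA 1 and 109, 132 and 122 with siRNA 2. Cdkn1c had a log2 difference of 1.99 (SE 0.24, adjusted p = 0.00247). All 3 siRNA 2 libraries lay above every other myotube library. With same-prefix libraries summed its adjusted p was 0.0911. The collagen gene Col23a1 (3.24, 4.07 and 3.88 CPM in controls, 4.45, 8.53 and 7.16 with siRNA 1 and 19.6, 33.7 and 34.9 with siRNA 2; log2 difference 2.13, SE 0.30, adjusted p = 0.00418), the secreted stanniocalcin Stc1 (2.27), the tight junction gene Cldn1 (2.03) and the transcription factor Sim1 (2.08) completed the 10. The Sim1 call was lost whichever of the siRNA 1 libraries was left out (adjusted p = 0.0615 to 0.0757).

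The most abundant of the 10 lowest was Deptor, an inhibitor of the kinase mTOR (ENSMUSG00000022419, chromosome 15, 55112317 to 55259271). It stood at 468, 490.5 and 440 CPM in controls, 371, 390 and 394 with siRNA 1 and 140.1, 119 and 121 with siRNA 2. For Deptor the log2 difference was -1.60 (SE 0.06, adjusted p = 4.82e-08). Sema3c, a secreted semaphorin (ENSMUSG00000028780, chromosome 5, 17574281 to 17730268), stood at 94.6, 101 and 94 CPM in controls, 126, 126 and 134 with siRNA 1 and 52.9, 50.03 and 48.7 with siRNA 2. Sema3c had a log2 difference of -1.35 (SE 0.04, adjusted p = 4.85e-09). In both genes all siRNA 2 libraries were below every control and every siRNA 1 library. Zdhhc4, a protein palmitoyltransferase, is described below with the genes lower in both stages. The others were Ms4a8a (-1.77), Prr32 (-1.27), the thyroid hormone binding protein Crym (-1.24), Serpinb9b (-1.16), Tex16 (-1.15), Myl2 and the receptor Gpr37 (-1.11; adjusted p = 0.0507 without replicate 3 of siRNA 2). Serpinb9 genes also have near-identical copies. Ms4a8a, Crym and Gpr37 rose with siRNA 1 against control (log2 fold changes 1.81, 1.12 and 2.54, adjusted p = 0.000364, 3.08e-05 and 0.000165).

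The 82 genes called against control in opposite directions comprised 22 that rose with siRNA 2 and fell with siRNA 1, and 60 of the reverse pattern. The number depended on the controls: it was 37, 35 and 34 without replicate 1, 2 or 3 of them (34, 31 and 31 of these among the 82) and 177 with a prefix term (80 among the 82). Pvalb, parvalbumin, the calcium buffer of fast fibres, stood at 15, 10.8 and 12.2 CPM in controls, 8.90, 7.20 and 7.43 with siRNA 1 and 32.6, 23.5 and 22 with siRNA 2. For Pvalb the log2 difference was 1.73 (SE 0.19, adjusted p = 0.00081). Tmc3, a transmembrane channel-like gene, stood at 54.7, 62.9 and 55.7 CPM in controls, 30.9, 31.4 and 30.6 with siRNA 1 and 80.3, 88.6 and 86.5 with siRNA 2. Tmc3 had a log2 difference of 1.46 (SE 0.06, adjusted p = 1.79e-08). Ccn3, a secreted matrix protein of the same family as Ccn2, stood at 62.6, 68.9 and 68.5 CPM in controls, 49.4, 44.5 and 45.5 with siRNA 1 and 150, 168 and 159 with siRNA 2. For Ccn3 the log2 difference was 1.77 (SE 0.06, adjusted p = 4.85e-09). In each of these 3 genes the controls lay between the siRNA groups without overlap. Thbs2, given above, and Trabd2b, which encodes a protease that acts on Wnt ligands (4.11, 2.72 and 3.90 CPM in controls, 2.92, 2.42 and 2.00 with siRNA 1 and 4.91, 4.82 and 4.79 with siRNA 2), complete the 5 chosen by the smaller of both fold changes. In the reverse pattern Sema3c, Serpinb9b, Kng2 (0.662, 0.444 and 0.514 CPM in controls, 0.998, 1.13 and 1.09 with siRNA 1 and 0.351, 0.205 and 0.212 with siRNA 2), the matrix protein gene Frem2 (3.72, 3.30 and 4.39 CPM in controls, 4.74, 5.03 and 5.67 with siRNA 1 and 3.12, 2.74 and 2.72 with siRNA 2) and the sodium channel subunit Scn3b (2.35, 2.16 and 2.02 CPM in controls, 2.67, 3.18 and 2.73 with siRNA 1 and 1.55, 1.68 and 1.68 with siRNA 2) were chosen by the same rule. On leaving out 1 control, calls against control were lost for Pvalb with siRNA 1 (adjusted p = 0.101 and 0.0888 without replicate 1 or 3), for Trabd2b with siRNA 1 (0.138 and 0.131 without replicate 1 or 3) and with siRNA 2 (0.182 and 0.0605 without replicate 2 or 3). For Serpinb9b they were lost with siRNA 1 (0.0556 without replicate 3) and siRNA 2 (0.0701 and 0.0617 without replicate 2 or 3). For Frem2 they were lost with siRNA 1 (0.0672 and 0.0989 without replicate 1 or 2) and siRNA 2 (0.0528 and 0.118 without replicate 1 or 3). For Scn3b they were lost with siRNA 1 (0.0549, 0.109 and 0.142 without replicate 1, 2 or 3) and siRNA 2 (0.0972 and 0.0705 without replicate 1 or 2).

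The same contrast in myoblasts rests on other libraries. There 1880 of 15586 tested genes were higher with siRNA 2 (12.1%) and 2223 lower (14.3%). Of the 14825 genes tested in both stages, 298 were higher in both (2.01%) and 609 lower in both (4.11%), and 183 were called in opposite directions. The genes higher in both made up 25.7% of those higher in myotubes and 16.1% of those higher in myoblasts, and the genes lower in both 42.2% and 27.4%. Without replicate 3 of myoblast siRNA 2, whose column name holds SETD3 where its label has SETD2, there were 229 and 527. With a prefix term in both stages 730 genes were higher and 948 lower in both, and in myoblasts 3064 (19.7%) were higher and 3199 (20.5%) lower. The difference between the stages was tested as an interaction in all 18 libraries: of 16930 genes, 1382 (8.16%) had a more positive difference in myotubes and 972 (5.74%) a more negative one, and with prefix terms 2262 (13.4%) and 1759 (10.4%).

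The difference between the stages passed the interaction test for 39 oxidative phosphorylation genes, 15 genes of the citrate cycle and biogenesis list, 18 mitochondrial ribosomal proteins and 15 proteasome genes, all with the more positive difference in myotubes; with prefix terms these were 42, 18, 21 and 20, again all more positive. The list counts for myoblasts and between the stages include replicate 3 of myoblast siRNA 2 and were not computed without it. In myoblasts 2 of 50 tested oxidative phosphorylation genes were higher and 5 lower (median -0.02; 8 and 11 with a prefix term, with a median of 0.00), and of 36 mitochondrial ribosomal proteins none was higher and 12 were lower. Over all genes 12.1% were higher and 14.3% lower in myoblasts, and 19.7% and 20.5% with a prefix term. Cyc1 differed by 0.38 in myotubes and -0.02 in myoblasts (interaction adjusted p = 8.01e-05), and Idh3a by 0.39 and 0.00 (interaction adjusted p = 3.26e-05). Ppargc1a was higher in both stages (0.91 and 0.55, myoblast adjusted p = 0.0392, interaction adjusted p = 0.429, and 0.0232 with prefix terms). The unfolded protein response list had 9 higher and 1 lower of 25 in myoblasts (12 and 2 with a prefix term), and 11 members had a more negative difference in myotubes and 1 a more positive one. Of the 36 YAP/TAZ and SRF targets, 11 of 35 tested were higher and 4 lower in myoblasts, with 6 members more negative and 2 more positive in myotubes; with a prefix term 18 were higher and 9 lower in myoblasts, and 14 members were more negative and 4 more positive. Ccn2 had differences of 1.32 and -0.20 (interaction adjusted p = 0.0241), the latter -0.48 with a prefix term. The sarcomere list, with a myoblast median of 0.22, had 3 of 50 members with a more negative difference in myotubes and none with a more positive one. That is near the share over all genes (5.74%). With prefix terms the sarcomere list had a myoblast median of 0.54 and 22 of 50 members with a more negative difference in myotubes, where 10.4% of all genes had one.

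**Figure D4:**
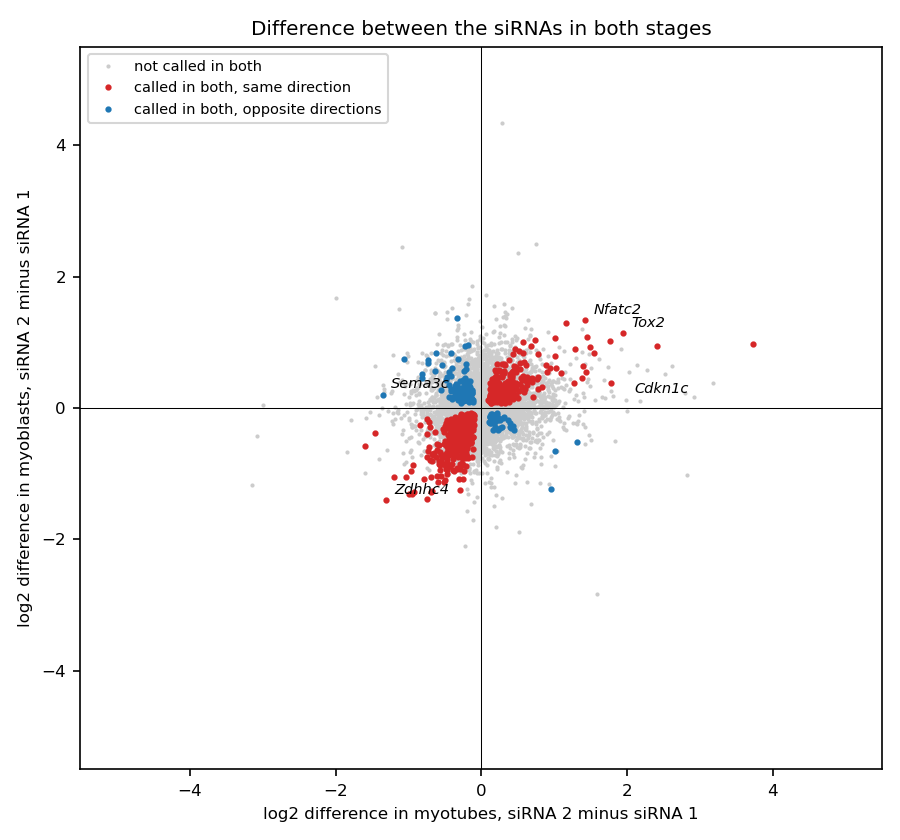
Log2 difference, siRNA 2 minus siRNA 1, in myotubes (x axis) and myoblasts (y axis) for the 14825 genes tested in both stages; red genes were called in both in the same direction (298 higher, 609 lower), blue genes in opposite directions (183), and 1 gene lies outside the axes. Zdhhc4 lies far down in both stages and Cdkn1c far to the right in myotubes only.

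The genes higher in both stages by the largest smaller difference were Nfatc2, a calcium-responsive transcription factor (1.43 in myotubes and 1.34 in myoblasts), the growth factor Fgf1 (1.16 and 1.29), the transcription factor Tox2 (1.94 and 1.14), the matrix protein Prelp (1.45 and 1.08) and Ccn3 (1.77 and 1.02). In myotubes the Nfatc2 call was lost without replicate 2 or 3 of siRNA 1 (adjusted p = 0.0533 and 0.0579). The Tox2 call was lost on leaving out each of the siRNA 1 libraries in turn, or replicate 2 or 3 of siRNA 2 (0.058 to 0.0805), and its first siRNA 2 library was the lowest of that group (0.882, 0.875 and 1.05 CPM with siRNA 1 and 1.44, 4.57 and 4.75 with siRNA 2). Among the genes lower in both stages, Zdhhc4 (ENSMUSG00000001844, chromosome 5, 143316489 to 143329256) stood at 19.6, 21.9 and 21.2 CPM in controls, 23.5, 23.4 and 24.5 with siRNA 1 and 10.2, 9.01 and 9.80 with siRNA 2. Zdhhc4 had a log2 difference of -1.30 (SE 0.06, adjusted p = 1.22e-07). Wrb, a receptor for insertion of tail-anchored proteins into the ER membrane (ENSMUSG00000023147, chromosome 16, 96145407 to 96157852), stood at 21.3, 22.1 and 22.3 CPM in controls, 20.8, 22.3 and 22 with siRNA 1 and 10.6, 10.9 and 10.3 with siRNA 2. For Wrb the log2 difference was -1.03 (SE 0.05, adjusted p = 1.5e-07). The siRNA 1 libraries of Wrb lay within the range of the controls or just below it, and siRNA 2 had about 2-fold less. In myoblasts Zdhhc4, Wrb and Cpt2 differed by -1.40, -1.04 and -1.31 (adjusted p = 2.56e-08, 1.99e-07 and 4.48e-08). The phospholipase gene Pla2g2e (-1.19 and -1.06) and the pseudogene Amd-ps3 (-0.97 and -0.97) were the other two; the Pla2g2e call was lost without replicate 2 or 3 of siRNA 2 or replicate 1 or 3 of siRNA 1 (adjusted p = 0.0714 to 0.106).

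Some of the genes lower with siRNA 2 in both stages share a 7-base word, GAGCGGA, in the 3′ UTR of their most abundant transcript (GENCODE M21, GRCm38). The word was taken from an earlier analysis of these same libraries, so its link to lower levels is a description and not independent evidence. It is printed in capitals with the 7 transcript bases on either side, in 5 of the genes with the largest shared decrease and in Setd2 itself, to show the letters these transcripts have in common.
Zdhhc4: agaaataGAGCGGAagtgccc
Wrb: gggtaaaGAGCGGAttgcaca
Cpt2: caggtgtGAGCGGAagatccc
Ankrd13a: ctccccaGAGCGGAgatccgg
Pi4k2b: gtgggtaGAGCGGAcagtgat
Setd2: ggagtatGAGCGGAaaggatg
These windows of 21 bases lie in the 3′ UTR at chr5:143316529-143316549 (minus strand) for Zdhhc4, chr16:96155994-96156014 (plus strand) for Wrb, chr4:107904097-107904117 (minus strand) for Cpt2, chr5:114804559-114804579 (plus strand) for Ankrd13a, chr5:52768211-52768231 (plus strand) for Pi4k2b and chr9:110617994-110618014 (plus strand) for Setd2. Outside the capitals the bases differ from gene to gene.

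Of 12744 tested genes with an annotated 3′ UTR, 241 (1.89%) carried the word there. Among genes lower in myotubes 84 of 1399 carried it (6.0%), among genes higher 13 of 1159 (1.12%), and among genes lower in both stages 63 of 577 (10.9%). The share grew with the size of the difference: 17 of 39 genes lower by at least 0.5 on the log2 scale in both stages carried it (43.6%), and 7 of the 10 lower by at least 0.7. The reverse complement, TCCGCTC, was in the 3′ UTR of 1.99% of all these genes and 2.6% of those lower in both stages, and of 16 of the 288 higher in both (5.56%). Since the word came from these same libraries, these shares are descriptions, and the reverse complement, not chosen that way, is no equal control. With a prefix term in both stages 72 of 898 genes lower in both carried the word (8.02%) and 8 of 695 higher in both (1.15%), and the reverse complement was in 2.56% and 3.88%. Outside the 3′ UTR the word was found in the transcript of 12.8% of all and 34.1% of those lower in both. The median 3′ UTR length was 930 bases for all, 1151 bases for genes lower in both stages, 1414 bases for genes higher in both and 1572 bases for those lower by at least 0.5 in both. Whether the word matches either siRNA cannot be told here, since the siRNA sequences were not used, and its part in the lower levels was not tested.

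Carriers of the word had a median log2 difference of -0.09 in myotubes, where 34.9% were lower and 5.39% higher, and of -0.16 in myoblasts, where 43.7% were lower and 8.22% higher. Of the genes without it in the 3′ UTR 10.5% were lower and 9.17% higher in myotubes, and 16.8% and 14.7% in myoblasts. The 1599 genes with the word in the transcript but not in the 3′ UTR lay between, with 18.4% lower and 6.32% higher in myotubes and 32.0% lower and 11.0% higher in myoblasts. With a prefix term in myoblasts 51.9% of the carriers and 24.3% of the other genes were lower. Against control in myotubes their median was 0.00 with siRNA 1 and -0.13 with siRNA 2. Ankrd13a, an ankyrin repeat protein that binds ubiquitin, stood at 83.5, 87.1 and 82.3 CPM in controls, 89.2, 98.3 and 97 with siRNA 1 and 52.9, 48.7 and 45.9 with siRNA 2. Ankrd13a had a log2 difference of -0.95 (SE 0.05, adjusted p = 4.53e-07). Pi4k2b, a phosphatidylinositol 4-kinase, stood at 25.3, 23.7 and 26.5 CPM in controls, 23.1, 23.8 and 23.2 with siRNA 1 and 16.1, 12.7 and 12 with siRNA 2 (log2 difference -0.78, SE 0.09, adjusted p = 0.000301), and Hipk2, a nuclear kinase with 2 copies of the word, at 188, 204 and 175 CPM in controls, 182, 194 and 188 with siRNA 1 and 108, 116 and 112 with siRNA 2. For Hipk2 the log2 difference was -0.75 (SE 0.05, adjusted p = 4.24e-06). In all 3 genes the siRNA 2 libraries were the 3 lowest; against control siRNA 1 raised Ankrd13a (0.17, adjusted p = 0.0379, and 0.111, 0.0515 and 0.134 without replicate 1, 2 or 3 of the controls), while Pi4k2b and Hipk2 did not pass (adjusted p = 0.454 and 0.961). Plk2, given among the p53 targets, also carried it. None of the 52 oxidative phosphorylation, 27 citrate cycle and 27 glycolysis genes carried the word in the 3′ UTR analysed. Over all genes with an annotated 3′ UTR 1.89% did, so lists of this size would hold few carriers in any case. The word was carried by 1 of 36 YAP/TAZ and SRF targets, 1 of 28 fatty acid oxidation genes (Cpt2) and 3 of 30 immediate early genes.

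**Figure D5:**
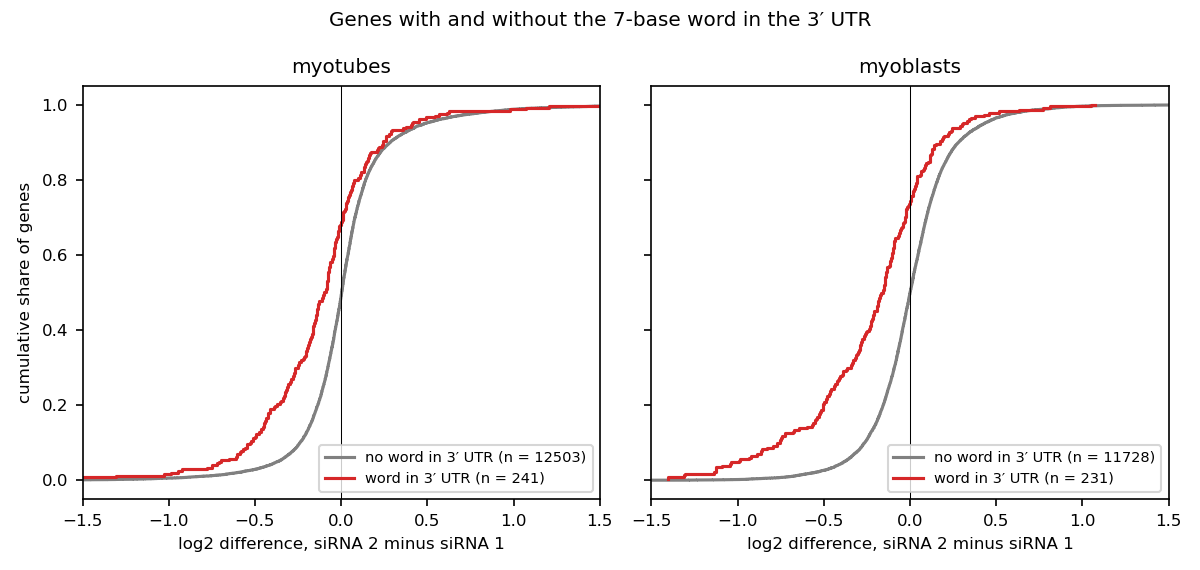
Cumulative share of genes (y axis) by log2 difference, siRNA 2 minus siRNA 1 (x axis, drawn from -1.5 to 1.5), for genes with and without the 7-base word in the 3′ UTR, in myotubes (left) and myoblasts (right). The curve of the carriers (241 and 231 genes) lies to the left of that of the other genes in both stages, with medians of -0.09 and -0.16 against 0.00 and 0.00.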

How the data were processed

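Each stage has 1 deposited table of 115088 Ensembl transcripts. Per the file headers, the authors deposited estimated counts and TPM for the 9 libraries of that stage, in the column layout of a transcript quantifier. Its name and version, and the transcript set, are not stated where these data were read. Per the submitters' processing notes, mm10 and DESeq2 were used, with no role stated. Transcripts were matched to GENCODE M21 (114200 matched, 47311 genes), and the estimated counts were summed per gene and rounded; unmatched transcripts held 0.16% to 0.24% of a library. Since no strand setting is stated, reads of overlapping or antisense genes may be mixed.

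Genes kept by filterByExpr (minimum count 10) were tested with edgeR 4.0.16 in R 4.3.3 (TMM, glmQLFit and glmQLFTest, robust, Benjamini-Hochberg over all genes tested). A call means an adjusted p below 0.05. Each stage had its own fit of 9 libraries (6 residual degrees of freedom) and the interaction used all 18 (12). SE came from the F statistic, and the scripts were tested on simulated data. The TPM deposited by the authors were tested with limma 3.58.1 on log2(TPM + 0.5), genes with a mean of at least 0.5 TPM; DESeq2 1.42.0 was a further alternative. p-values measure the spread between labelled replicates, whose separate origin is not stated beyond the label.

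The members, the 51 gene lists (1363 of 1364 symbols matched, 12 through RefSeq synonyms) and the 7-base word were chosen with earlier results of these data known. Named genes were chosen by rule: Setd2; the 10 highest and 10 lowest called genes with a mean of at least 1 CPM and groups that do not overlap; up to 3 called members of a list; and up to 5 genes a direction called opposite ways against control or called in both stages. Others named in the text were chosen after their values were seen. Windows were read from GENCODE M21 transcripts. Some named genes are not reported here.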

Additional observations from a re-analysis of the deposited data

Results flagged for a closer look

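The difference between the siRNAs differed between the stages in the interaction test of all 18 libraries (edgeR adjusted p under 0.05) for 1382 genes with a more positive and 972 with a more negative difference in myotubes than in myoblasts. Cdkn1c had a log2 interaction of 1.87 (adjusted p = 0.00594): it differed by 1.99 in myotubes and 0.13 in myoblasts. The interaction was 2.04 for Gbp9, 1.71 for Stc1, 1.49 for Cldn1, 1.47 for Gzme, 1.12 for Thbs2 and 0.76 for Ccn3 (adjusted p = 0.0226, 0.0284, 0.0369, 0.00259, 3.86e-09 and 0.00282). Sema3c, lower with siRNA 2 in myotubes (-1.35) and higher in myoblasts (0.21), had an interaction of -1.55 (adjusted p = 3.89e-10). Deptor and Serpinb9b had interactions of -1.01 and -1.09 (adjusted p = 2.29e-07 and 0.00548). For Cpt2, the difference was -0.99 in myotubes and -1.31 in myoblasts, with an interaction of 0.33 (adjusted p = 0.0269).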

How the results depend on the processing

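The direct myotube counts of 1249 genes higher and 1506 lower stayed within 1.5 times under RLE scaling, DESeq2, no filter, the 6 siRNA libraries alone and same-prefix libraries summed (974 and 1005). They moved further with limma on log2(TPM + 0.5) (673 higher), with a pseudocount of 0.1 (675 higher), with TPM unfiltered (446 and 917), with a prefix term (1919 higher) and with the D1 libraries alone (2366 and 2660). Leaving out 1 library gave 807 to 1446 higher and 946 to 1750 lower. Whether the replicate numbers pair the samples could not be told. Correlations of same-numbered deviations between the siRNAs were 0.19, 0.05 and 0.23, and those of other numbers were -0.23 to 0.06. Replicate 2 of siRNA 2 had nearly the same value with replicate 3 of siRNA 1 (0.06), so the correlations do not decide it. With the replicate block there were 1493 higher and 1684 lower, 478 and 729 in both stages against 298 and 609, and 5322 in myoblasts against 4103; a prefix term, chosen after seeing the data, gave 6263 in myoblasts, 730 higher and 948 lower in both stages, and 4021 genes that differed between the stages against 2354. The counts against control stayed within 1.5 times with a prefix term (10475 calls over both siRNAs against 8491) and without any 1 control. The cause of these shifts was not tested. Of 161 called genes named by rule, 91 stayed called under all 20 alternatives, and none changed direction. Of the 51 lists, 16 had a median of the other sign under at least 1 alternative, among them sarcomere (-0.0254 to 0.0159), excitation-contraction coupling, myogenic regulators, p53 targets and interferon response; 13 of the 16 had medians within 0.05 of 0. The other 3 were these: imprinted genes (0.07) ranged from -0.0375 to 0.245 on leaving out 1 library, with -0.0265 without replicate 3 of siRNA 1; neural markers (-0.21) came to 0.0889 with the 6 siRNA libraries; smooth muscle markers (-0.05) came to 0.0171 with both filtered TPM fits and 0.0447 with the D1 libraries, and ranged from -0.1765 to 0.0461 on leaving out 1 library, with 0.0354 and 0.0297 without replicate 2 of siRNA 2 or replicate 1 of siRNA 1. Genes of low abundance such as Cdh5 rest on few reads.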
